A study of Malus domestica with 4 samples.

Results

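Sucrose phosphate synthase and the trehalose enzymes were followed in the cortex of detached apple fruit stored under extreme low oxygen. The genes described are 5 of the 63514 gene models in the deposited tables: sucrose phosphate synthase 3F (MDP0000783676), the trehalose-phosphatase/synthase 9 genes MDP0000799020 and MDP0000242929, and the trehalase genes MDP0000235673 and MDP0000315187. They were selected on the 0.8ox/0.4ox ratio of these same samples, in which the study called them more expressed at the higher oxygen level (log2 ratio above 1 and adjusted p under 0.001), so that comparison describes them and does not test them. Both trehalase identifiers carried the same counts in every condition, which leaves 4 distinct profiles. The names come from the annotation used by the study, and the enzymatic roles given here are those of the named families.

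The samples were cortex of cv. Granny Smith apples kept at 1 °C. T0 fruit were taken after 3 days of acclimation in normoxia, 0.4ox fruit after 24 days at 0.4 kPa oxygen and 0.8ox fruit after 24 days at 0.8 kPa oxygen. No fruit kept in normoxia for those 24 days were sequenced. The study also set the CO2 of both low oxygen atmospheres, and each atmosphere had its own chamber. Low oxygen, CO2, chamber and time in storage therefore cannot be told apart in any ratio to T0. Between 0.4ox and 0.8ox, oxygen level and chamber cannot be told apart. The fourth sample was moved to 0.8 kPa after storage at 0.4 kPa; the study sampled such fruit a day after the change and again at the end of the trial, and the labels do not say which of these was sequenced. T0, 0.4ox and 0.8ox were each sequenced as 3 libraries, and the number for the shifted fruit is not given in the sources used here, but the tables hold 1 estimated read count per gene and condition with a modelled variance, so no value of a single library can be shown and every error below is that modelled standard deviation (SD). Because the material is bulk cortex, fewer cells of a type and less RNA per cell cannot be told apart in any of the values.

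Sucrose phosphate synthase joins UDP-glucose and fructose 6-phosphate into sucrose 6-phosphate, which a phosphatase then turns into sucrose, and it is the step at which plant cells commit hexoses to sucrose. The trehalose route starts from UDP-glucose and glucose 6-phosphate. Trehalose 6-phosphate synthase makes trehalose 6-phosphate, a sugar signal that follows sucrose in plants, a phosphatase converts it into trehalose, and trehalase splits trehalose into glucose. In Arabidopsis, TPS9 belongs to the class of synthase proteins that carry a synthase-like and a phosphatase-like domain and for which enzyme activity is in doubt.

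The estimated counts summed to 9553180 for T0, 5445598 for 0.4ox and 6471124 for 0.8ox. Each count was scaled to the total of its condition and given as CPM, the count in every 1000000 counts of the condition. A separate table paired 0.8ox with the shifted fruit, with totals of 5363827 and 4865029. Pyruvate decarboxylase (MDP0000800945), the first enzyme of ethanol fermentation, separated T0 from storage: it had 855 estimated counts in T0, 47715 in 0.4ox and 36866 in 0.8ox. It does not check which storage sample is which, since its 0.8ox/0.4ox ratio (log2 -0.62, adjusted p = 0.57) did not pass. MDP0000375455, the gene that the study's RT-qPCR used as reference, was itself higher in storage under equal totals, with log2 ratios to T0 of 1.22 (SE 0.19) at 0.4 kPa and 1.19 (SE 0.17) at 0.8 kPa. No source used here names an apple cortex marker, and the tissue label was therefore not checked against markers.

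**Figure D1:**
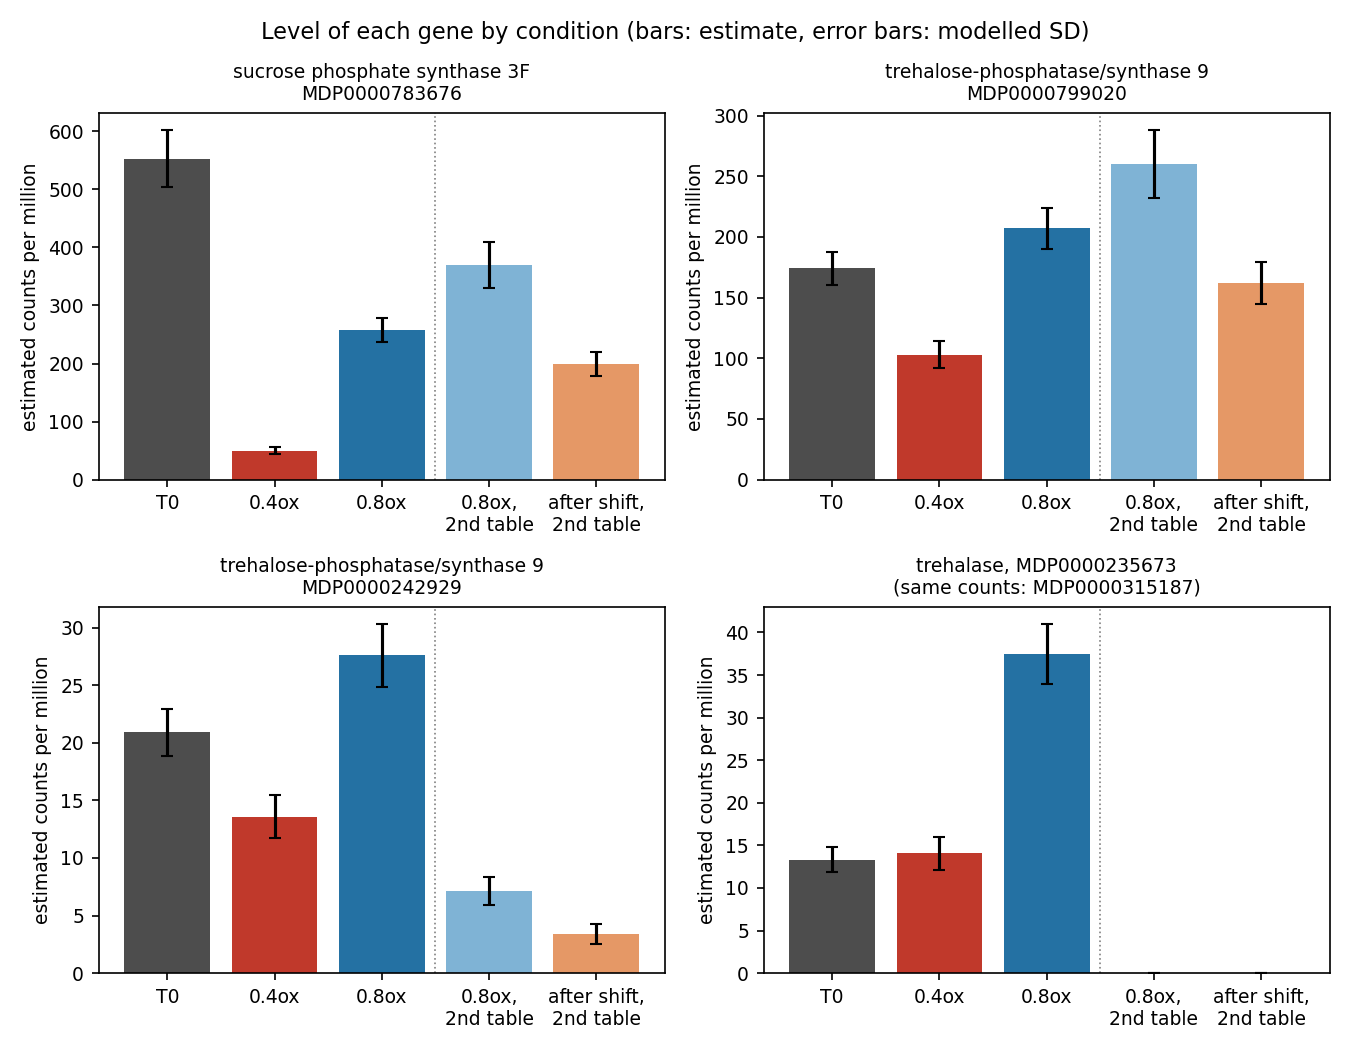
Estimated count as CPM (y axis, linear, from 0) of the 4 distinct profiles in T0, 0.4ox and 0.8ox and, right of the dotted line, in the separate table with 0.8ox and the shifted fruit; bars are the 1 value of a condition and error bars the modelled SD. Sucrose phosphate synthase 3F was highest in T0 (553 CPM) and lowest in 0.4ox (50.0 CPM), trehalase was highest in 0.8ox (37.5 CPM), and trehalase was at 0 in both samples of the separate table.

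Sucrose phosphate synthase 3F was the member whose transcript fell most from T0, and its level was lower at 0.4 than at 0.8 kPa oxygen, as the selection required. MDP0000783676 had 5283 estimated counts in T0, or 553 ± 48.4 CPM (modelled SD). In 0.4ox it had 272 counts, or 50.0 ± 5.66 CPM. In 0.8ox it had 1669.7 counts, or 258 ± 21.1 CPM. The 3 levels stood apart by more than their modelled SD, in the order T0, 0.8ox, 0.4ox.

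Relative to T0, the sucrose phosphate synthase transcript fell 11.1-fold in 0.4ox, a log2 ratio of -3.47 (SE 0.21; adjusted p = 8.9e-61, normal test on the deposited variances with Benjamini-Hochberg adjustment over 29939 genes). It was left at 9.05% of its T0 level (95% interval 6.84 to 12%). Of the genes tested, 346 had a lower ratio in this comparison. In 0.8ox the level was 46.7% of T0 (95% interval 36.9 to 59%), a log2 ratio of -1.10 (SE 0.17; adjusted p = 3.4e-09), and 4065 of 29909 tested genes had a lower ratio.

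Each of those ratios shares a condition with the comparison on which the genes were selected, and so does the weighted mean of both storage conditions against T0. With weights set by the variances and taken as fixed, the modelled error of that mean is uncorrelated with that of 0.8ox/0.4ox. The weights come from the same counts, however, so the mean is not fully free of the selection. On this measure MDP0000783676 had a log2 ratio of -1.91 (SE 0.16; adjusted p = 8.9e-32), lower in both storage conditions. This fall passed the threshold under each of the 10 alternative settings run for it. Some of these, such as a looser limit or a smaller variance, could not have removed the call. The 0.8ox/0.4ox ratio, given as a description, was 5.16-fold (log2 2.37, SE 0.20).

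Of the trehalose-phosphatase/synthase 9 genes, 1 fell in 0.4ox against T0 and neither passed the test in 0.8ox against T0. MDP0000799020 had 1663 counts in T0 (174 ± 13.4 CPM), 558 in 0.4ox (103 ± 11 CPM) and 1337 in 0.8ox (207 ± 16.9 CPM). MDP0000242929 was counted less often, with 199.7 counts in T0 (20.9 ± 2.03 CPM), 74 in 0.4ox (13.6 ± 1.89 CPM) and 179 in 0.8ox (27.6 ± 2.72 CPM). In both genes the lowest of the 3 levels was that of 0.4ox, which the selection fixes in part, since it required 0.4ox to lie below 0.8ox.

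In 0.4ox, MDP0000799020 fell to a log2 ratio of -0.76 against T0 (SE 0.19; adjusted p = 0.0004). This call was lost when ratios were centred on the median of all genes (-0.68, adjusted p = 0.0018) or scaled by the upper quartile (-0.71, adjusted p = 0.0011). MDP0000242929 had a ratio of -0.62 (SE 0.24; adjusted p = 0.035), which did not pass the threshold of 0.001. In 0.8ox neither gene passed, with log2 ratios of 0.25 (SE 0.16; adjusted p = 0.24) and 0.40 (SE 0.20; adjusted p = 0.11) that turned negative (-0.31 and -0.16) when counts were left unscaled. Unscaled counts keep the differences in total count between conditions, and the total of T0 was the highest.

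The weighted storage mean against T0 was -0.12 (SE 0.15; adjusted p = 0.53) for MDP0000799020 and 0.06 (SE 0.18; adjusted p = 0.83) for MDP0000242929, and neither passed. In unscaled counts MDP0000799020 passed (-0.78, adjusted p = 3.5e-07), while MDP0000242929 turned to -0.58 (adjusted p = 0.0027) and did not. Against 0.4ox, the 0.8ox level was higher by 1.01 (SE 0.19) and 1.02 (SE 0.25) on the log2 scale. These were the members just inside the study's limit of 1.

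The intervals of the difference between the pair of synthase genes included 0. The log2 ratio of MDP0000242929 minus that of MDP0000799020 was 0.14 (95% interval -0.46 to 0.75) in 0.4ox/T0 and 0.16 (-0.35 to 0.66) in 0.8ox/T0. Intervals of this width leave room for a difference of more than 0.6 in either comparison. The pair may not be separate measurements, because MDP0000242929 kept only 21.4% of its 0.8ox count in the table with the shifted fruit, and whether the remaining reads also match another gene was not tested.

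Trehalase rose in 0.8ox against T0, where sucrose phosphate synthase 3F fell, and did not pass the test in 0.4ox. Each trehalase identifier had 127 estimated counts in T0 (13.3 ± 1.46 CPM), 76.6 in 0.4ox (14.1 ± 1.94 CPM) and 243 in 0.8ox (37.5 ± 3.5 CPM). T0 and 0.4ox overlapped within their modelled SD, whereas 0.8ox lay above both.

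In 0.8ox, MDP0000235673 and MDP0000315187 rose 2.81-fold over T0 (log2 1.49, SE 0.21; adjusted p = 1.6e-11), and 1133 of 29909 genes had a higher ratio. The reference gene MDP0000375455 had 1.19 in the same comparison. In 0.4ox the trehalase ratio was 0.08 (SE 0.25; adjusted p = 0.85), or -0.73 in unscaled counts (adjusted p = 0.008), and neither value passed the threshold.

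In the storage mean of trehalase, 0.8ox had the larger weight, since its modelled SD was 9.33% of its count against 13.8% in 0.4ox. That mean against T0 was 1.05 (SE 0.19; adjusted p = 5.1e-07) and passed. It did not pass in unscaled counts (0.41, adjusted p = 0.056). The 0.8ox level exceeded the 0.4ox level by 1.41 (SE 0.24) on the log2 scale. As the counts of both identifiers were the same, they make up 1 measurement, and which of both gene models gave rise to the reads cannot be told apart.

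**Figure D2:**
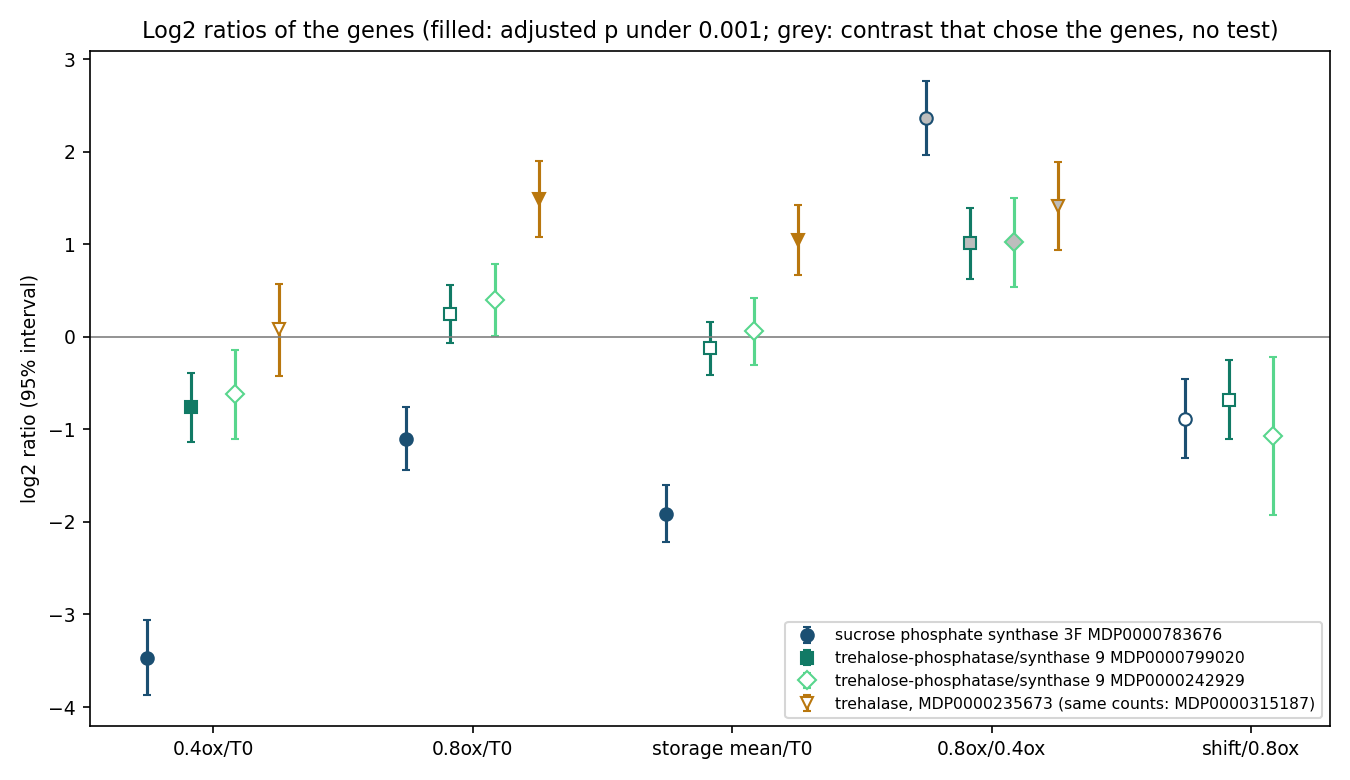
Log2 ratio (y axis) of each distinct profile in the 5 comparisons (x axis), with 95% intervals from the modelled variances; filled symbols passed an adjusted p of 0.001, open ones did not, and grey ones belong to 0.8ox/0.4ox, on which the genes were selected. Sucrose phosphate synthase 3F lay at -3.47 in 0.4ox/T0 and trehalase at 1.49 in 0.8ox/T0, while both trehalose-phosphatase/synthase 9 genes had storage means near 0.

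Counted together, 2 of the 5 genes fell in 0.4ox against T0, none rose and 3 did not pass, where 16.9% of all tested genes passed in either direction. In 0.8ox against T0, 2 rose (both trehalase identifiers), 1 fell (sucrose phosphate synthase 3F) and 2 did not pass, against 16.6% of all genes. The storage mean gave the same counts of 2, 1 and 2, against 23.2% of all genes. As both trehalase identifiers are a single measurement, 2 members passed in 0.8ox/T0 and 2 in the storage mean when identical genes were counted once. In 0.8ox/0.4ox all 5 passed, as the selection required, where 3.96% of all genes did, and nothing is read from that count.

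The median log2 ratio of the members, with both trehalase identifiers included, was -0.62 in 0.4ox/T0, 0.40 in 0.8ox/T0 and 0.06 for the storage mean, beside medians of -0.08, -0.06 and 0.03 over all genes tested. The members therefore did not share a direction against T0. What they shared was the ratio on which they were selected.

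In the plot of both ratios against T0, all members lie above the line of equal ratios, as the selection requires, but at different places along it. The genes nearest to each profile were sought by the root mean square difference of the 2 ratios to T0, over 9922 genes. No gene came within 0.1 of sucrose phosphate synthase 3F. Its nearest were MDP0000658332, named FASCICLIN-like arabinogalactan-protein 10 (difference 0.195, ratios -3.48 and -1.38), MDP0000437033, a protein phosphatase 2C (0.219), and MDP0000841918, polyol/monosaccharide transporter 5 (0.275). In 0.4ox, MDP0000437033 had only 4.74 counts and MDP0000841918 13.7, so their nearness is imprecise.

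The synthase profiles lay in a denser region. Within 0.1 of MDP0000799020 there were 16 genes, the nearest being MDP0000700517 (0.008), MDP0000210595 (0.014) and MDP0000125618 (0.018). Within 0.1 of MDP0000242929 there were 14, with MDP0000207727 (0.017), MDP0000231505 (0.027) and MDP0000150156 (0.029) nearest. Trehalase had 1 gene within 0.1, MDP0000499668, named PHF5-like protein (0.051), followed by MDP0000162058 (0.111) and MDP0000643281 (0.112). The measure rests on 3 conditions only. Over the 4 profiles, the SE of these ratios to T0 ran from 0.16 to 0.25. Differences below that size, and the ranks that rest on them, are therefore not resolved. The search also left out genes that kept under 50% of their 0.8ox count beside the shifted fruit, as MDP0000242929 and trehalase themselves did.

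**Figure D3:**
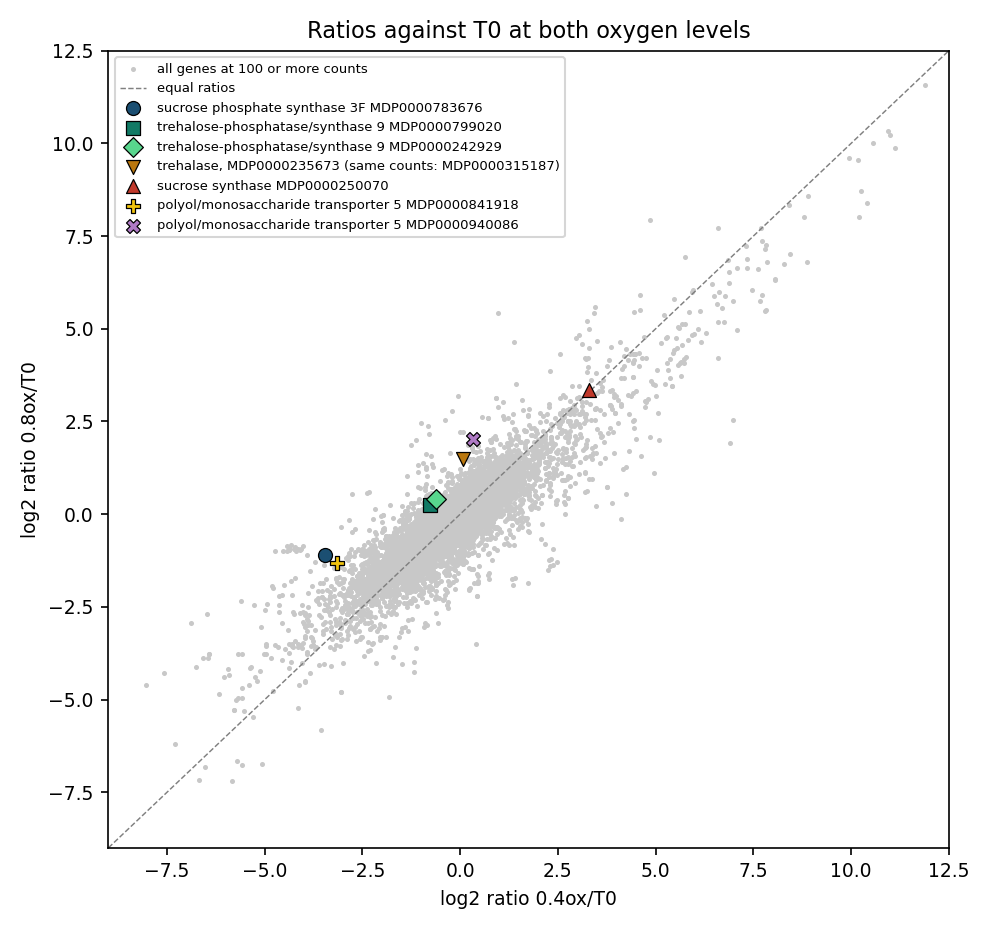
Log2 ratio 0.4ox/T0 (x axis) against 0.8ox/T0 (y axis) of 14138 genes with at least 100 estimated counts in T0, 0.4ox or 0.8ox (grey points), with the members and 3 sugar genes marked; the dashed line marks equal ratios. Sucrose phosphate synthase 3F (-3.47, -1.10) lies beside polyol/monosaccharide transporter 5 MDP0000841918 (-3.15, -1.32), and sucrose synthase MDP0000250070 lies near the line at 3.29 and 3.35.

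To place the members among other genes of sucrose and sugar transport, 14 further identifiers were listed. Of these, 13 were named in a table ordered by the 0.8ox/0.4ox ratio, so their direction in that comparison is not independent of the choice. In T0, 0.4ox and 0.8ox, 10 of the 14 stayed under 10 estimated counts (highest 6.96) and were not tested. They include the other sucrose phosphate synthase entries of the list, MDP0000915422 and MDP0000476182, and 1 of the 4 genes that could be tested was a sucrose synthase.

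Sucrose synthase, which can split sucrose into UDP-glucose and fructose, moved opposite to sucrose phosphate synthase 3F. MDP0000250070 had 709 estimated counts in T0, 3967 in 0.4ox and 4903 in 0.8ox. Its log2 ratios to T0 were 3.29 (SE 0.22) and 3.35 (SE 0.18), both past the threshold, where sucrose phosphate synthase 3F had -3.47 and -1.10. After storage at either oxygen level, sucrose synthase was thus higher than in T0 and sucrose phosphate synthase 3F lower. Oxygen and time in storage are not separated in these ratios. The study had already followed this sucrose synthase gene by RT-qPCR and reported its up-regulation under both low oxygen levels. Its direction against T0 is therefore not independent of the choice of the gene.

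The polyol/monosaccharide transporter 5 genes carry sugar alcohols and hexoses across membranes. MDP0000841918 had 213 counts in T0 but 13.7 in 0.4ox and 57.7 in 0.8ox. It fell in both storage conditions (log2 -3.15, SE 0.41, and -1.32, SE 0.24). MDP0000940086 had 255, 182 and 703 counts, and rose in 0.8ox against T0 (2.02, SE 0.18), while its ratio in 0.4ox, 0.32 (SE 0.22; adjusted p = 0.26), did not pass. The levels of the first had the order of those of sucrose phosphate synthase 3F, with T0 highest and 0.4ox lowest.

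Tonoplast monosaccharide transporter3 (MDP0000250193), a vacuolar hexose carrier by its name, was all but absent from T0, with 0.643 counts, against 10.6 in 0.4ox and 107 in 0.8ox. Set against a floor of 3 counts in T0, its level was at least 52.5-fold higher in 0.8ox. Over the 4 genes tested, 1 rose and 1 fell in 0.4ox/T0, and 3 rose and 1 fell in 0.8ox/T0 and in the storage mean, where 16.9, 16.6 and 23.2% of all genes passed. The median log2 ratio of the list, with this gene at its bound, was 1.48 in 0.4ox/T0 and 2.69 in 0.8ox/T0, beside -0.08 and -0.06 over all genes. Most names of the list came from an order by the 0.8ox/0.4ox ratio, and 3 of the 4 tested genes passed as higher in 0.8ox than in 0.4ox. Some untested identifiers, such as MDP0000462673, had 0 counts in 0.8ox. For the tested genes the choice favours high 0.8ox values, so neither the counts nor the medians in 0.8ox/T0 are independent of it. The 1 gene that rose in 0.4ox/T0 was sucrose synthase, whose rise under low oxygen had been reported before it was listed.

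The shifted fruit were compared with 0.8ox in their own table, and a member must first be shown to be measured there. Counts below 1 took 12 distinct values in 0.8ox of that table, against 766 for 0.8ox in the other tables, so the low counts of the tables were not made in the same manner. Over 15171 genes with at least 50 counts, the 0.8ox count of the separate table was a median of 101% of that in the other tables, with a 95th percentile of 118%, and 1120 genes (7.38%) were at 0.

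By this share, sucrose phosphate synthase 3F kept its reads in full (118%) and MDP0000799020 most of them (104%). MDP0000242929 kept 21.4%, so its counts in the separate table were low. Both trehalase identifiers were at 0 in 0.8ox and in the shifted fruit, and since they had 243 counts in 0.8ox elsewhere, the 0 is not a level: trehalase was not measured after the shift. For trehalase, and for most of the count of MDP0000242929, the values in T0, 0.4ox and 0.8ox thus rest on reads that the separate table does not assign to these genes. They may be reads that match more than 1 gene, which was not tested, although the deposited variance attributes no part to uncertain read assignment for any member.

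**Figure D4:**
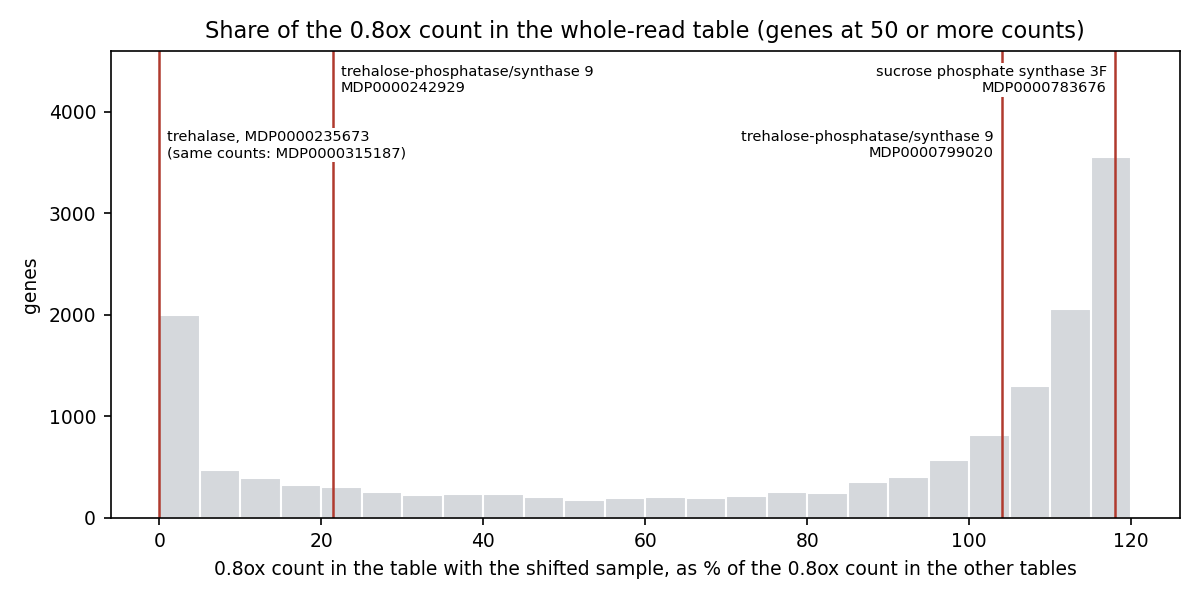
Number of genes (y axis) by the 0.8ox count in the table with the shifted fruit as a percent of the 0.8ox count in the other tables (x axis, bins of 5%), for 15171 genes with at least 50 counts; red lines mark the members. Sucrose phosphate synthase 3F lies in the highest bin at 118%, MDP0000799020 at 104%, MDP0000242929 at 21.4% and trehalase at 0.

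After the shift, the 3 members that could be measured were at lower values than in fruit sampled after 24 days at 0.8 kPa, and none passed the threshold. The study made the shift later than that sampling, so the shifted fruit had also been stored for longer. Oxygen history and time in storage cannot be told apart in this comparison. MDP0000783676 had 1978 counts in 0.8ox (369 ± 39.5 CPM) and 968 after the shift (199 ± 21 CPM). MDP0000799020 had 1395 (260.0 ± 27.7 CPM) and 790.0 (162 ± 17.2 CPM). MDP0000242929 had 38.2 (7.12 ± 1.19 CPM) and 16.4 (3.38 ± 0.847 CPM). The CPM values of this table are not on the scale of the others, since its totals cover fewer reads.

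The log2 ratio shift/0.8ox was -0.89 for MDP0000783676 (SE 0.22; adjusted p = 0.0019), which is 54% of the 0.8ox level (95% interval 40.2 to 72.5%). It was -0.68 (SE 0.22; adjusted p = 0.035) for MDP0000799020 and -1.07 (SE 0.44; adjusted p = 0.15) for MDP0000242929. The median of all tested genes in this table was 0.15, so relative to it the members lay lower still. With ratios centred on that median, MDP0000783676 passed (-1.04, adjusted p = 0.00013), as it did with the upper quartile (-0.98, adjusted p = 0.00042) and in unscaled counts (-1.03, adjusted p = 0.00015).

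Under equal totals 0 of 3 members passed in the normal test and 0 in edgeR's exact test, while all 3 had an unadjusted p under 0.05, and 1.96% of all tested genes passed. Of those genes 319 were higher after the shift and 86 lower, a split that became 234 and 129 with centring on the median. All 4 tested sugar genes also had ratios below 0, and 0 of 4 passed: sucrose synthase had -0.57 (adjusted p = 0.16), MDP0000250193 -1.11 (adjusted p = 0.0053), MDP0000841918 -0.94 (adjusted p = 0.092) and MDP0000940086 -0.76 (adjusted p = 0.017). The comparison shares 0.8ox with the one on which the genes were selected, a choice that favours high 0.8ox values, and how much of the lower values this accounts for was not tested. The shifted fruit could not be set against 0.4ox, since no table holds both.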

How the data were processed

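RNA was sequenced as single reads from apple cortex in 4 conditions. The authors cleaned reads with ERNE, aligned them to Mdomestica_196_v1.0 with TopHat2 (Bowtie2 index, option -M against reads with several locations) and ran Cuffdiff on 3 libraries each of T0, 0.4ox and 0.8ox; tool versions and the number of libraries of the shifted fruit are not given in the sources used here. The deposited tables hold estimated counts and their variance, 1 value per condition and comparison. Members and lists were chosen with earlier results of these data known.

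Here counts were scaled to equal totals within a table (log2 offsets 0.81 and 0.56 in the tables with T0, -0.25 between both oxygen levels and 0.14 in the table of the shifted fruit). Each log2 ratio was divided by its SE, computed from the deposited variances by the delta method, and tested two-sided against the normal distribution with Benjamini-Hochberg adjustment. Genes were tested where 1 of the conditions reached 10 counts and neither was at 0. The threshold was an adjusted p of 0.001. The deposited variance describes libraries pooled by a model, which for T0, 0.4ox and 0.8ox the study's methods call biological replicates. It was nearly the same for different genes at like counts. In 0.8ox the modelled SD was 8.18, 8.16, 8.21 and 8.17% of the count for MDP0000783676, MDP0000799020, MDP0000940086 and MDP0000375455. The p-values thus rest on a modelled spread and do not show how a single gene varied between libraries. The code was tested on simulated data.

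Alternatives were no scaling, median centring, upper quartile, variance divided by 3 (also for the shifted fruit, by assumption), dispersion variance alone, no minimum or 50 counts, a pseudocount of 1, an adjusted p of 0.05, edgeR 4.0.16 exact tests on rounded counts (R 4.3.3), and identical genes counted once. Named genes were the 5 members, listed sugar genes past the threshold in any comparison, both check genes and the 3 genes most like each profile (at least 100 counts in 1 condition and 50% of the 0.8ox count kept). Python 3.11.15, numpy 2.4.6, pandas 2.3.3 and scipy 1.17.1 were used.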

Additional observations from a re-analysis of the deposited data

How the results depend on the processing

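Over 11 alternatives, 243 log2 ratios of members were recomputed: 221 kept their direction and side of the threshold, 5 lost the call, 12 gained one and 5 changed sign. These counts include 0.8ox/0.4ox, on which the genes were selected, and hold both trehalase identifiers although they are 1 measurement. A limit of 0.05 or a smaller variance could not remove a call, and dispersion variance alone left values nearly the same. The 221 therefore overstate how stable the results are. The changes of sign were all in unscaled counts and none of these values passed in either setting: in 0.4ox/T0 both trehalase identifiers (-0.73), in 0.8ox/T0 MDP0000799020 (-0.31) and MDP0000242929 (-0.16), and in the storage mean MDP0000242929 (-0.58). MDP0000242929 passed in 0.4ox/T0 in unscaled counts (-1.43), with variance divided by 3 (adjusted p = 3.4e-05) or at the limit of 0.05. Its 0.8ox/0.4ox ratio lost the call with no minimum count. Nothing is read from that, since the genes were selected on this ratio.

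The number of members past the threshold in 0.4ox/T0 was 1 with median centring and with the upper quartile. In shift/0.8ox it was 1 in unscaled counts, with median centring and with the upper quartile, 3 with variance divided by 3, and 2 at the limit of 0.05, where the sugar list gave 4 with variance divided by 3 and 2 at 0.05.

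Calls over all genes, 5052 in 0.4ox/T0, became 11388 in unscaled counts, 12127 with variance divided by 3 and 10107 at 0.05. The 4975 of 0.8ox/T0 became 8742, 11749 and 9739, and the 6121 of the storage mean became 11360, 12404 and 11005 in the same order. The 1066 of 0.8ox/0.4ox became 4342 with variance divided by 3 and 2492 at 0.05, and the 405 of shift/0.8ox became 2501 and 1148. Without scaling, the share of higher calls moved from 45.6 to 7.03% in 0.4ox/T0, from 40.2 to 9.04% in 0.8ox/T0, from 43.3 to 7.78% in the storage mean and from 38.8 to 68% in 0.8ox/0.4ox, because median log2 ratios of unscaled counts were -0.89, -0.62 and 0.25 in the 3 pairwise tables.

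No paired analysis was possible because the tables hold 1 value per condition, and for the same reason leaving out a library was not possible. edgeR was not run for the storage mean. The smallest log2 ratio that passed in 0.4ox/T0 was 0.72 in size.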
